A study of Caenorhabditis elegans with 6 samples.

Results

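The genes of the mitochondrial unfolded protein response (UPRmt) were examined in whole worms of Caenorhabditis elegans fed bacteria for RNAi of let-607, which encodes a transcription factor of the CREB3 family. The set holds 9 genes named for their place in this pathway, hsp-60, atfs-1, dve-1, ubl-5, haf-1, clpp-1, lonp-1, spg-7 and timm-23, and each was found by its WormBase identifier among the 46778 genes measured. The rule that chose them used no measured value, although earlier results of these data were known when they were chosen. Wild-type N2 worms were grown from synchronized L1 larvae at 20 °C and harvested at the L4 larval stage. The control group was 3 libraries from worms on HT115 bacteria with the empty vector L4440, and the other group was 3 libraries labelled let-607 RNAi, whose HT115 bacteria were diluted with control bacteria. Both groups carried the same genotype and were kept at the same temperature. Nothing in the labels says that the 3 libraries of a group came from separate cultures, so the p-values measure only the spread between these libraries, which may be technical.

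Mitochondria make few of their own proteins and import the others, which must be folded by chaperones and cleared by proteases in the matrix and inner membrane. In C. elegans, a shortage of folding capacity or a slowing of import induces nuclear genes for mitochondrial chaperones, and the transcription factor ATFS-1 is the best known mediator of this signal. ATFS-1 is normally imported into mitochondria and degraded there, and it reaches the nucleus when import slows. The usual readouts of the response are the mRNAs and reporters of the chaperones hsp-6 and hsp-60.

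No gene of the set passed the threshold of the comparison, which asked for an adjusted p under 0.1 and a change of more than 2-fold. The mRNAs of atfs-1 and timm-23 rose by 25.1% and 12.6% in the libraries labelled let-607 RNAi, and hsp-60, the chaperonin at the centre of the response, had a log2 fold change of -0.03 with a 95% interval from -0.14 to 0.08. The protease gene clpp-1 was higher in 2 of the 3 let-607 RNAi libraries and at the control level in the other. Values are FPKM, fragments counted for each gene, scaled by transcript length and by the mapped fragments of the library, and can be compared between genes. Fold changes are on the log2(FPKM + 0.1) scale and are given with their standard error (SE) where the call turns on it, and the test was limma with Benjamini-Hochberg adjustment over the 15453 genes whose mean reached 0.5 FPKM. "Rose" and "fell" are used for an adjusted p under 0.1 of any size, and "passed" for a change that was also above 2-fold.

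These small changes stand against a wide background. Among all genes tested, 3.75% passed upward and 1.4% downward, against none of the 9 in either direction by limma. Of the 9, 2 had an unadjusted p under 0.05, atfs-1 and timm-23, with changes far under 2-fold. Without a minimum size, 31.7% of all genes rose and 11.4% fell, and of the 9 genes 2 rose and none fell. Their share that rose is thus near that of all genes. The median log2 fold change was 0.02 over the 9 genes and 0.12 over all genes tested. The 3 let-607 RNAi libraries lay entirely above the 3 control libraries for 35.7% of all genes and entirely below them for 13.4%, and among the 9 genes this held for 2 and for none. The median of all genes moved with the scaling between libraries, and whether its positive value on the deposited scale is a shift of that scale or a general change cannot be told apart. It was 0.01 after median-of-ratios scaling, -0.03 after quantile normalization and 0.17 after rescaling to TPM, which gives all libraries an equal sum. For several genes the change is therefore also given relative to the median of all genes. The sum of the 9 genes was between 1135 and 1145 FPKM in the control libraries. It was 1120 FPKM in the first let-607 RNAi library, and 1273 and 1271 FPKM in the second and in the third.

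**Figure D1:**
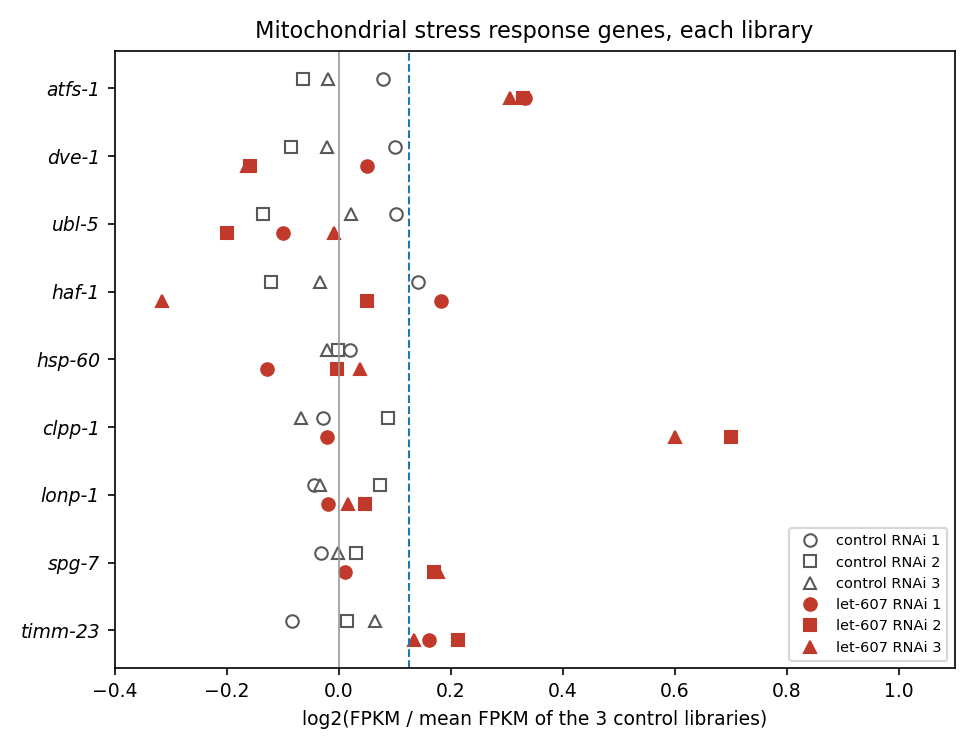
FPKM of each of the 9 genes in each library, as log2 of the ratio to the mean of the 3 control libraries (x axis), with open symbols for control RNAi, filled symbols for let-607 RNAi, and shapes for the replicate number. The dashed line marks the median of all genes tested, at a log2 fold change of 0.12. The filled symbols are clear of the open ones only for atfs-1 and timm-23, and for clpp-1 the let-607 RNAi libraries 2 and 3 stand apart.

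Some facts of the whole series bear on every value. The libraries hold no read counts, so their depth is unknown, and the sums of FPKM were between 1400487 and 1485099. The target let-607 (WBGene00002783) was itself measured at 69.1, 57.1 and 57.3 FPKM in the controls, against 71.0, 76.2 and 77.9 FPKM under the let-607 RNAi label. Its mRNA was thus not lower where the label would place it lower, the group is called by its label for that reason, and why the value was not lower was not tested. Markers of several tissues moved with the labels. The summed level of 5 sperm genes was 711 to 792 FPKM in the control libraries and 1150 to 1223 FPKM in the let-607 RNAi libraries, and 4 of the 5 rose. For 5 oocyte genes the ranges were 82.2 to 94.4 and 129 to 144 FPKM, and 5 of 5 rose. Of 5 germline genes 3 rose and 1 fell, of 4 epidermal genes 3 rose, and of 4 neuronal and 4 body wall muscle genes 2 rose in each list. None of 4 intestinal genes rose or fell, with sums of 1617 to 1646 and 1525 to 1697 FPKM. After median-of-ratios scaling 3 of these 4 fell, no muscle gene rose and 1 fell, 1 epidermal and 1 neuronal gene rose, and the counts for sperm and oocyte genes were as before. None of 5 genes of adult yolk and cuticle rose or fell with all libraries, but the first control library stood apart for some of them. Its vit-2 was at 28.4 FPKM against 5.60 and 7.16 in the other controls, and its col-19 was at 78.8 against 17.6 and 28.7 FPKM. Without that library 2 of the 5 rose, and atfs-1 and timm-23 were still the only ones of the 9 genes to rise. With a replicate block 2 of the 5 rose as well. No listed marker was at 0 in any library, and the lowest value was that of the yolk gene vit-5 at 0.3 FPKM. In whole worms, fewer cells of a type and less RNA per cell cannot be told apart, and the part of these differences in the results below was not tested.

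In the control libraries the 9 genes spanned a wide range of mRNA levels. hsp-60 was the most abundant with a mean of 506 FPKM and stood above 97.5% of all genes tested in mean level. timm-23 followed at 177 FPKM, clpp-1 at 159, ubl-5 at 108, spg-7 at 84.9, lonp-1 at 51.7, atfs-1 at 33.3 and dve-1 at 19.1 FPKM. The transporter gene haf-1 was lowest at 1.90 FPKM. The control values of timm-23 and clpp-1 overlapped, and every other pair of neighbors in this order was separated in all 3 control libraries. In the let-607 RNAi libraries the values of clpp-1 spanned those of timm-23, and those of ubl-5 and spg-7 overlapped. hsp-60 made up 43.9% to 44.8% of the summed FPKM of the 9 genes in the control libraries and 39.7% to 41.4% in the let-607 RNAi libraries.

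Among the regulators, atfs-1 (WBGene00013878, chromosome V from 14193663 to 14197700, plus strand) encodes the bZIP transcription factor that carries the signal from mitochondria to the nucleus. Its mRNA was at 35.2, 31.8 and 32.8 FPKM in the control libraries. It was at 41.9, 41.8 and 41.2 FPKM in the let-607 RNAi libraries. All let-607 RNAi values lay above all control values, and the let-607 RNAi values differed from each other by less than those of the controls. The mean rose from 33.3 ± 1.72 to 41.6 ± 0.40 FPKM (SD, n = 3 each), which is 0.32 on the log2 scale (SE 0.05, 95% interval 0.20 to 0.45, adjusted p = 0.00414 from limma). Relative to the median of all genes the change was 0.20. By the two-sided exact permutation test p was 0.1, and groups of 3 cannot reach a smaller one. atfs-1 was the only one of the 9 genes that rose in every alternative tried, with log2 fold changes between 0.20 and 0.37 over 11 other settings and between 0.29 and 0.36 when each library was left out in turn. No other protein-coding gene lay within 1000 bases of it. As a description, the genes whose values followed atfs-1 most closely over the 6 libraries were Y57G7A.5, T08D10.3 and mig-15 (Pearson r of 0.9999, 0.9997 and 0.9994 on the log2 scale), the closest of 15453 genes over only 6 points.

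dve-1 (WBGene00022861, chromosome X from 427035 to 433812, minus strand) encodes a homeodomain protein that binds chromatin at chaperone genes during mitochondrial stress. Its mRNA was at 20.5, 18.0 and 18.8 FPKM in the control libraries and at 19.8, 17.1 and 17.04 FPKM in the let-607 RNAi libraries. The groups overlapped, and the log2 fold change was -0.09 (95% interval -0.29 to 0.11, adjusted p = 0.453 from limma). ubl-5 (WBGene00006726, chromosome I from 5607826 to 5608841, minus strand) encodes a small ubiquitin-like protein that binds DVE-1, with a coding sequence of 73 codons. It was at 116, 98.3 and 110 FPKM in the control libraries and at 101, 94.0 and 107 FPKM in the let-607 RNAi libraries. Here too the groups overlapped, with a log2 fold change of -0.10 (95% interval -0.28 to 0.08, adjusted p = 0.361 from limma). The genes beside ubl-5 on its strand, tns-1 and the proton pump gene vha-10, had log2 fold changes of -0.03 and -0.07, and neither rose nor fell. The ratio of atfs-1 to dve-1, which no factor applied to a whole library can move, was 1.72 to 1.77 in the control libraries and 2.12 to 2.45 in the let-607 RNAi libraries. This ratio, like the other ratios below, was chosen after the values had been seen and carries no test. Its ranges did not overlap between the groups of these libraries, and it cannot tell which of the mRNAs differed.

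haf-1 (WBGene00001811, chromosome IV from 17376427 to 17379310, plus strand) encodes an ABC transporter of the mitochondrial inner membrane that exports peptides from the matrix. It was at 2.10, 1.75 and 1.86 FPKM in the control libraries and at 2.16, 1.97 and 1.53 FPKM in the let-607 RNAi libraries. The highest and the lowest of the 6 values were both in the let-607 RNAi group. Its log2 fold change of -0.02 had the widest 95% interval of the 9 genes, from -0.46 to 0.42 (adjusted p = 0.941 from limma), so changes within that interval could not be seen at this level. C30H6.5, 723 bases upstream on the same strand, had a log2 fold change of -0.21 with overlapping groups (adjusted p = 0.606 from limma). The last exon of haf-1 shares 64 bases with C30H6.9 on the opposite strand, which was at 30.5 to 41.4 FPKM. The libraries were made with a stranded kit, but the sources used here do not say whether strand was used in counting, so reads from the shared bases may not be separated.

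The chaperonin gene hsp-60 (WBGene00002025, chromosome III from 1619742 to 1625803, plus strand) encodes the folding chamber of the mitochondrial matrix, and its promoter drives a standard reporter of the response. Its mRNA was at 513, 505 and 499 FPKM in the control libraries. It was at 463, 505 and 519 FPKM in the let-607 RNAi libraries. The control values lay inside the range of the let-607 RNAi values. The means were 506 ± 7.06 and 496 ± 29.3 FPKM (SD, n = 3 each), with a log2 fold change of -0.03 (adjusted p = 0.662 from limma, SE 0.05). The interval from -0.14 to 0.08 lies well inside a change of 2-fold in either direction on the deposited scale. It covers only the spread between these libraries, which may be technical. Relative to the median of all genes the value was -0.16, and after median-of-ratios scaling hsp-60 fell (log2 fold change -0.15, adjusted p = 0.0498 from limma). The genes that followed hsp-60 most closely over the 6 libraries were ceh-24, W05B10.6 and W05H12.4 (Pearson r of 0.9840, 0.9831 and 0.9826), each with a mean under 2 FPKM.

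hsp-60 lies head to head with Y22D7AL.10, a gene on the minus strand whose near end is 812 bases away and which was listed with the mitochondrial chaperones. Y22D7AL.10 was at 742, 753 and 784 FPKM in the control libraries and at 751, 783 and 762 FPKM in the let-607 RNAi libraries. The neighbor thus had a log2 fold change of 0.01 (adjusted p = 0.849 from limma). The ratio of hsp-60 to Y22D7AL.10 was 0.636 to 0.691 in the control libraries and 0.617 to 0.682 in the let-607 RNAi libraries, so the ranges overlapped for this pair. Y22D7AL.4, 828 bases downstream of hsp-60 on its strand, was not among the genes tested.

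hsp-6, the mitochondrial HSP70 and the other usual readout, did not follow hsp-60. Its mRNA was at 374, 364 and 343 FPKM in the control libraries and at 419, 442 and 452 FPKM in the let-607 RNAi libraries. All let-607 RNAi values were above all control values, and the log2 fold change was 0.28 (SE 0.05, 95% interval 0.17 to 0.39, adjusted p = 0.00486 from limma). The change of hsp-6 was 0.15 relative to the median of all genes. The ratio of hsp-60 to hsp-6 was 1.37, 1.39 and 1.45 in the control libraries. It was 1.11, 1.14 and 1.15 in the let-607 RNAi libraries. Within each library the balance between these chaperone mRNAs was therefore shifted towards hsp-6 in all let-607 RNAi libraries, without overlap.

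Of the 3 proteases, clpp-1 (WBGene00014172, chromosome II from 10300714 to 10302842, minus strand) encodes the proteolytic subunit of the matrix protease ClpP. It was at 156, 169 and 152 FPKM in the control libraries. It was at 157, 259 and 241 FPKM in the let-607 RNAi libraries. The first let-607 RNAi library thus had the level of the controls, and the other two lay well above them. The means were 159 ± 9.08 and 219 ± 54.5 FPKM (SD, n = 3 each), and the log2 fold change of 0.43 was the largest of the 9 genes but did not reach the threshold (SE 0.18, 95% interval -0.002 to 0.86, adjusted p = 0.114 from limma, exact permutation p = 0.2). The coefficient of variation was 5.7% in the control and 24.8% in the let-607 RNAi libraries. Without the first let-607 RNAi library, the one at the control level, the log2 fold change was 0.65 (adjusted p = 0.00318 from limma). The call thus depended on this library, though not on it alone. The call also turned after rescaling to TPM (adjusted p = 0.0826), when only genes above 5 FPKM were tested (0.0928) and with a replicate block (0.082, limma in each case).

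The genes around clpp-1 did not share a single pattern among the let-607 RNAi libraries. vha-9, a subunit gene of the vacuolar proton pump 207 bases upstream on the same strand, was at 537, 561 and 561 FPKM in the control libraries and at 575, 557 and 545 FPKM in the let-607 RNAi libraries. The ratio of clpp-1 to vha-9 was 0.271 to 0.302 in the control libraries, 0.273 in the first let-607 RNAi library, and 0.465 and 0.443 in the others. mdt-22, a subunit gene of the Mediator complex that lies within the span of clpp-1 on the opposite strand and shares 0 exon bases with it, was at 33.5, 39.7 and 39.0 FPKM in the control libraries and at 37.4, 41.2 and 41.2 FPKM in the let-607 RNAi libraries. Its first let-607 RNAi value was within the control range and the other two were above it, as for clpp-1 but by far less, and the log2 fold change was 0.10 (adjusted p = 0.395 from limma). nep-26, 581 bases downstream, was at 3.74, 3.50 and 3.67 FPKM in the control libraries and at 5.51, 5.60 and 5.05 FPKM in the let-607 RNAi libraries. It rose in all 3 of these, the first included (log2 fold change 0.55, adjusted p = 0.00508 from limma).

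**Figure D2:**
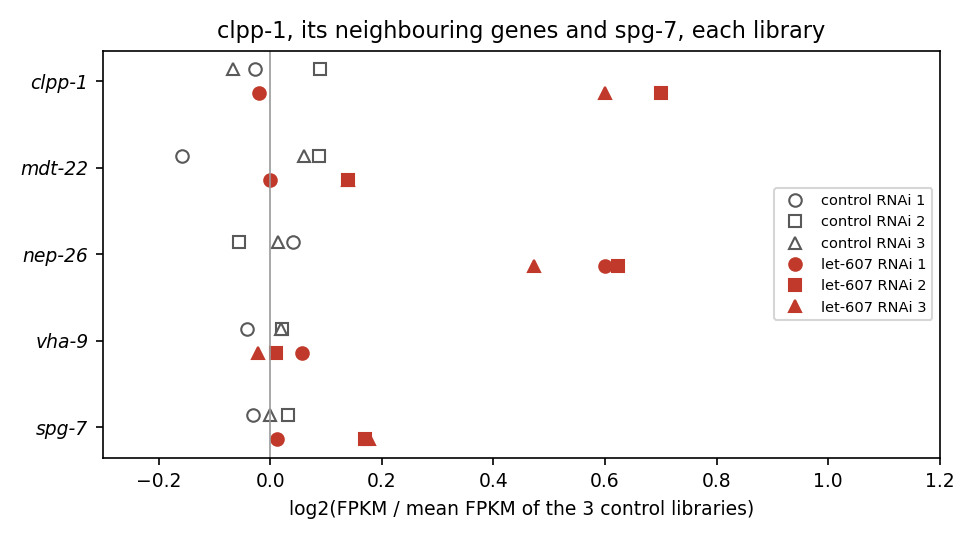
FPKM of clpp-1, of the genes mdt-22, nep-26 and vha-9 beside it, and of spg-7 in each library, as log2 of the ratio to the mean of the 3 control libraries (x axis), with open symbols for control RNAi and filled symbols for let-607 RNAi. For clpp-1 the first let-607 RNAi library (circle, 157 FPKM) sits with the controls and the others (259 and 241 FPKM) do not, for spg-7 the first let-607 RNAi library also sits with the controls and the others lie slightly above, and nep-26 is higher in all 3 let-607 RNAi libraries.

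spg-7 (WBGene00004978, chromosome I from 3467132 to 3478517, plus strand) encodes a subunit of the m-AAA protease of the inner membrane, and its knockdown is a common way to induce the response. It was at 83.0, 86.7 and 84.8 FPKM in the control libraries and at 85.5, 95.5 and 95.9 FPKM in the let-607 RNAi libraries. As for clpp-1, the first let-607 RNAi library lay within the control range and the other two lay above it. The log2 fold change was 0.12 (95% interval -0.01 to 0.25, adjusted p = 0.143 from limma), which is -0.01 relative to the median of all genes. Without the first let-607 RNAi library it was 0.17 (adjusted p = 0.0294 from limma), and after rescaling to TPM also 0.17 (adjusted p = 0.0631). Its partner gene ppgn-1, which encodes the other subunit type of this protease, gave spg-7 to ppgn-1 ratios of 2.67 to 2.97 in the control and 2.75 to 3.03 in the let-607 RNAi libraries. Within the span of spg-7 on the opposite strand lies Y47G6A.15, which was at 2237 to 2437 FPKM and shares 0 exon bases with it. Y47G6A.9, 835 bases downstream of spg-7 on its strand, had a log2 fold change of -0.01 (adjusted p = 0.864 from limma).

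lonp-1 (WBGene00016391, chromosome I from 10676922 to 10682374, minus strand) encodes the Lon protease of the matrix, which degrades imported ATFS-1. It was at 50.2, 54.4 and 50.5 FPKM in the control libraries and at 51.0, 53.5 and 52.3 FPKM in the let-607 RNAi libraries. All let-607 RNAi values lay inside the control range, with a log2 fold change of 0.02 (95% interval -0.10 to 0.13, adjusted p = 0.827 from limma). The nearest protein-coding genes on its strand moved in different directions. spcs-1, a signal peptidase subunit gene 97 bases upstream, fell (log2 fold change -0.13, adjusted p = 0.0407 from limma), whereas ttc-1, 110 bases downstream, and sdha-2, 895 bases upstream, rose (0.21 and 0.19, adjusted p = 0.0744 and 0.0134 from limma). The ratio of clpp-1 to lonp-1 was 3.01 to 3.12 in the control libraries, 3.08 in the first let-607 RNAi library, and 4.84 and 4.62 in the others.

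timm-23 (WBGene00008857, chromosome I from 11578641 to 11579612, plus strand) encodes the channel of the inner membrane translocase, through which matrix proteins enter. It was at 167, 179 and 186 FPKM in the control libraries. It was at 198, 206 and 195 FPKM in the let-607 RNAi libraries. The groups did not overlap, and the mean rose from 177 ± 9.26 to 200 ± 5.48 FPKM (SD, n = 3 each), with a log2 fold change of 0.17 (SE 0.05, 95% interval 0.06 to 0.29, adjusted p = 0.0347 from limma, exact permutation p = 0.1). Relative to the median of all genes the change was 0.05. The call was lost after median-of-ratios scaling (log2 fold change 0.05, adjusted p = 0.496), after quantile normalization (0.12, adjusted p = 0.11) and without the second let-607 RNAi library (0.15, adjusted p = 0.112, limma in each case).

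**Figure D3:**
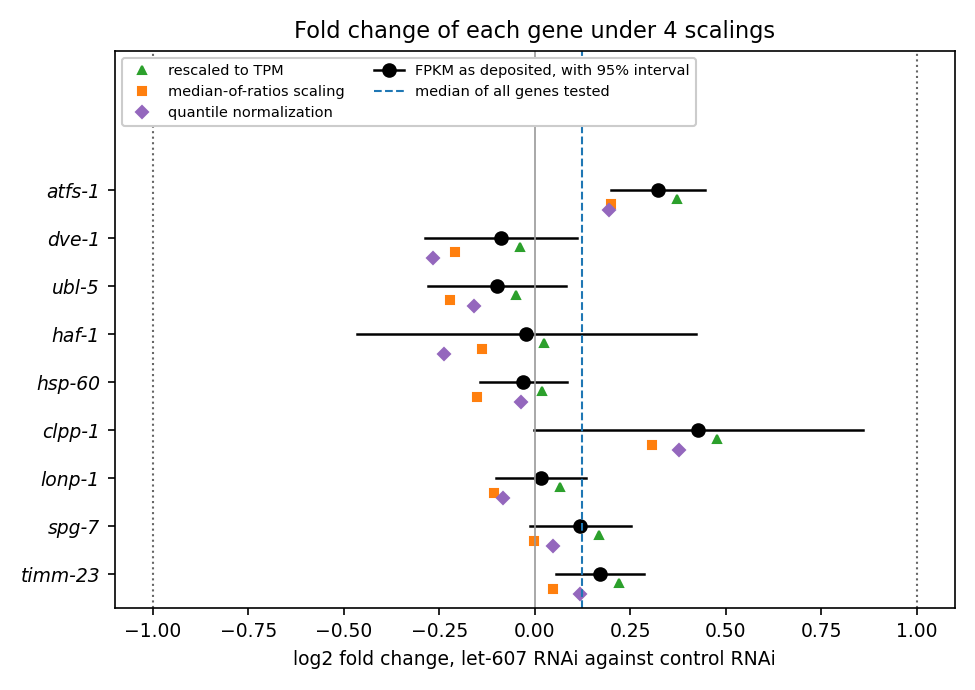
Log2 fold change of each of the 9 genes, let-607 RNAi against control RNAi (x axis), as black points with 95% intervals for the FPKM as deposited and as colored symbols after TPM, median-of-ratios and quantile scaling. The dashed line is the median of all genes tested (0.12) and the dotted lines mark a 2-fold change. All 9 intervals lie within the dotted lines, and only those of atfs-1 and timm-23 are clear of 0.

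Other genes of mitochondrial protein quality control were read from lists of genes by role, each by its counts beside the background of 31.7% higher and 11.4% lower. Of 5 other chaperone genes, hsp-6 rose and none fell, with a list median of 0.01, although 3 fell after median-of-ratios scaling and 1 after quantile normalization. hsp-75, the TRAP1 homolog of the HSP90 family, was lowest (log2 fold change -0.11, adjusted p = 0.104 from limma). Of 11 other genes of proteases and scaffolds, 3 rose and none fell, although 4 fell after median-of-ratios scaling and 2 after quantile normalization. Those that rose were K07A3.3 and D2030.2, which were listed with the proteases, with log2 fold changes of 0.62 and 0.48, and the stomatin-like gene stl-1 with 0.58. K07A3.3 rose from 12.7 ± 0.75 to 19.5 ± 1.08 FPKM (SD, n = 3 each, adjusted p = 0.00119 from limma). The prohibitin genes phb-1 and phb-2, scaffolds of the inner membrane, had log2 fold changes of 0.02 and -0.01.

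The import genes did not follow timm-23 as a group. Of 19 tested, 1 rose and 4 fell, with a median of -0.06. The count that fell depended on the scaling, with 12 after median-of-ratios scaling, 5 after quantile normalization and 2 after rescaling to TPM, and it was 2 to 6 when each library was left out in turn (2 without the second or the third control library or the third let-607 RNAi library). The gene that rose was timm-17B.1, which encodes a subunit of the same TIM23 complex (0.15, adjusted p = 0.018 from limma). The ratio of timm-23 to timm-17B.1 was 0.779 to 0.846 in the control libraries and 0.792 to 0.831 in the let-607 RNAi libraries, so these ranges overlapped. Those that fell were tomm-7 and tomm-22, subunits of the outer membrane translocase, and tin-10 and tin-13, small carriers of the intermembrane space. tomm-7 was at 480, 443 and 436 FPKM in the control libraries and at 374, 367 and 339 FPKM in the let-607 RNAi libraries, a log2 fold change of -0.33 (adjusted p = 0.0046 from limma). The ratio of timm-23 to tomm-20, a receptor of the outer membrane, was 1.03 to 1.08 in the control libraries and 1.26 to 1.4 in the let-607 RNAi libraries.

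Of 15 genes of chromatin and signaling regulators of the response, 4 rose and 1 fell. The direction depended on the scaling, with 1 that rose and 4 that fell after median-of-ratios scaling, 1 and 3 after quantile normalization, and 9 and 1 after rescaling to TPM. The largest rise was that of baz-2, a bromodomain gene, from 3.36 ± 0.10 to 4.94 ± 0.17 FPKM (SD, n = 3 each, log2 fold change 0.54, adjusted p = 0.00521 from limma). The histone methyltransferase gene met-2 also rose (0.26). atf-4, a bZIP factor of the integrated stress response, fell from 134 ± 3.99 to 107 ± 5.11 FPKM (log2 fold change -0.32, adjusted p = 0.00329 from limma). It thus moved opposite to atfs-1, and the ratio of atfs-1 to atf-4 was 0.242 to 0.259 in the control libraries and 0.372 to 0.402 in the let-607 RNAi libraries. Of 6 genes known to respond to mitochondrial stress, 4 rose by small amounts (hsp-6, gpd-2, lys-2 and clec-65, with log2 fold changes of 0.28, 0.12, 0.16 and 0.13), of which hsp-6 also stands in the chaperone list. Relative to the median of all genes, gpd-2, lys-2 and clec-65 were at -0.001, 0.031 and 0.008. skn-1 was lowest (-0.12, adjusted p = 0.138 from limma), with all let-607 RNAi values below all control values. After median-of-ratios scaling 1 of the 6 rose and 1 fell. Among 7 relatives of haf-1 with a testable level, including the transporter abtm-1, 3 rose and 2 fell (2 and 2 after median-of-ratios scaling and after quantile normalization, 3 and 1 after rescaling to TPM), with haf-2 highest (0.57, adjusted p = 0.000517) and haf-9 lowest (-0.32, adjusted p = 0.0069, limma in both cases).

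Genes of mitochondrial shape and removal had a higher median than the 9 genes, and this difference was not tested. Of 11, 8 rose and none fell, with a median of 0.28, and 5 rose after median-of-ratios scaling and after quantile normalization. Without the second control library, and likewise without the second let-607 RNAi library, 6 rose. fis-2, a Fis1 homolog linked to fission, was the only one to pass. It was at 39.1, 32.1 and 44.2 FPKM in the control libraries and at 96.5, 108 and 84.8 FPKM in the let-607 RNAi libraries. Its lowest let-607 RNAi value was above its highest control value, and the change was 1.33 on the log2 scale (SE 0.13, adjusted p = 0.000679 from limma). The mitophagy receptor gene dct-1 (0.74), the Fis1 homolog fis-1 (0.57), the fission GTPase gene drp-1 (0.46) and the fusion genes eat-3 (0.28) and fzo-1 (0.19) rose as well, by the log2 fold changes given. The mitophagy ligase gene pdr-1, the Parkin homolog, had a log2 fold change of 0.00 (adjusted p = 0.987 from limma).

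**Figure D4:**
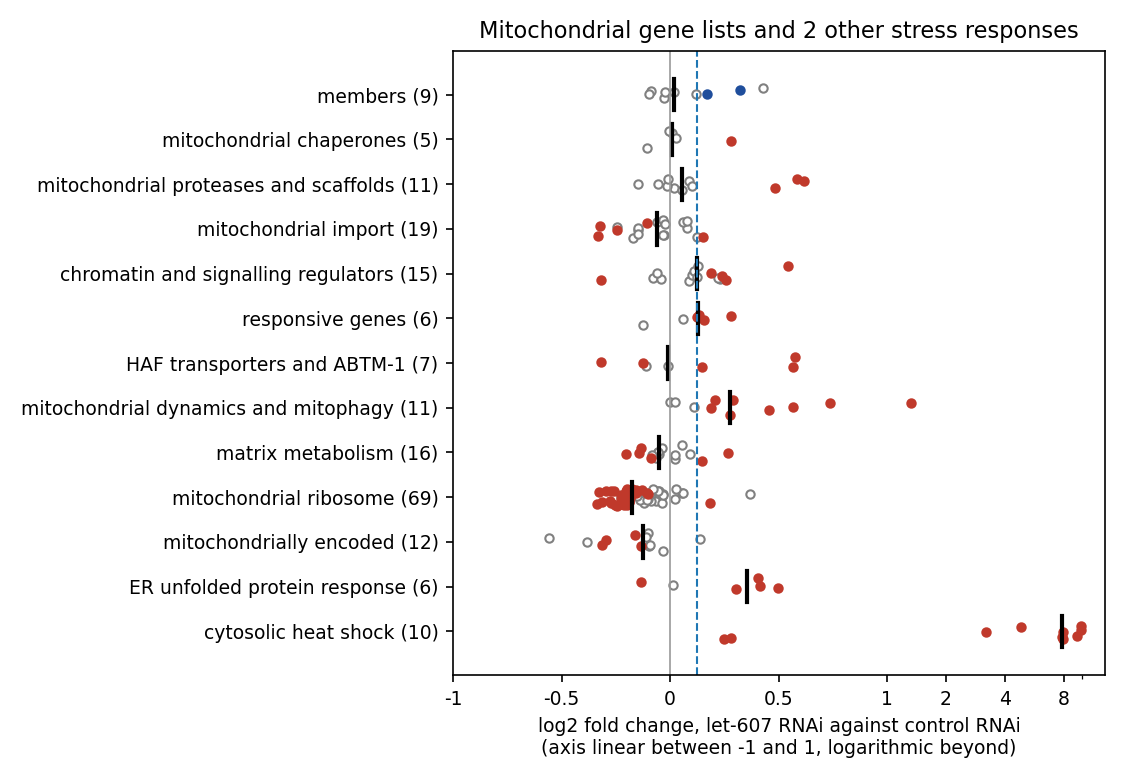
Log2 fold change of each gene, let-607 RNAi against control RNAi (x axis, linear between -1 and 1 and logarithmic beyond), for the 9 genes (row "members") and for each other list, with the number of genes tested in brackets. Filled points rose or fell at an adjusted p under 0.1, open points did not, black bars are list medians and the dashed line is the median of all genes tested. The list medians are 0.02 for the 9 genes, 0.28 for dynamics and mitophagy, -0.17 for the mitochondrial ribosome and 7.90 for cytosolic heat shock.

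Genes whose products mitochondria fold and assemble were read in 3 further lists. Of 69 genes of the mitochondrial ribosome tested, 1 rose and 42 fell, with a median of -0.17. The count that fell was 61 after median-of-ratios scaling, 55 after quantile normalization and 35 after rescaling to TPM, and was 29 to 41 when each library was left out in turn, with 29 without the third let-607 RNAi library. mrps-21 was lowest with a log2 fold change of -0.34 (99.7 ± 9.35 to 79.1 ± 11.5 FPKM, SD, n = 3 each, adjusted p = 0.0616 from limma). Of 12 protein genes of the mitochondrial genome, 4 fell and none rose, with COX3 at -0.31 (adjusted p = 0.0012 from limma). The count that fell was 8 after median-of-ratios scaling and 2 after quantile normalization, after rescaling to TPM, without the second control library and without the third let-607 RNAi library. mRNA was selected for these libraries, which bears on how mitochondrial transcripts are recovered. Of 16 genes of matrix metabolism, 2 rose and 4 fell, with the aconitase gene aco-2 highest (0.27) and the succinyl-CoA ligase gene suca-1 lowest (-0.20). After median-of-ratios scaling 11 of them fell, and after rescaling to TPM 1 fell and 4 rose.

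The stress responses of other compartments are given for scale. Of 10 genes of the cytosolic heat shock response tested, all 10 rose (9 after median-of-ratios scaling and after quantile normalization) and 8 passed. Their median log2 fold change was 7.90, and a pair of the 10 is listed with identical values in every library. With a pseudocount of 1 the median was 6.5. Some control values were near 0, as for hsp-16.2 at 0.28, 0.66 and 0.58 FPKM, unlike hsp-1 with a control mean of 1638 FPKM. Of 6 genes of the endoplasmic reticulum response, 4 rose and 1 fell (none after rescaling to TPM or quantile normalization), with a median of 0.36, and none passed. The 9 mitochondrial genes, with log2 fold changes between -0.10 and 0.43, stood below these medians except for clpp-1, which was above that of the endoplasmic reticulum list. The difference between lists was not tested.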

How the data were processed

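RNA sequencing of whole L4 worms was analysed in 6 libraries, grouped and numbered by their labels. The authors deposited FPKM for each gene and library, on WBcel235. The paper's methods name TopHat and Cufflinks, whereas the submitters' processing notes name fastp, HISAT and RSEM, so which of these made the values is not settled here. The files hold no counts, and precision rests on the spread between 3 libraries a group. Of 48197 lines, 1 broken line was left out and 1418 repeats with the same values were used once. Genes were named with Ensembl release 115, which held 46603 of 46778 identifiers.

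Values were compared as log2(FPKM + 0.1) with limma 3.58.1 in R 4.3.3 (eBayes with a trend, no covariates), for genes whose mean reached 0.5 FPKM, and adjusted by the Benjamini-Hochberg method over 15453 genes. The thresholds follow the paper's methods. The fit was run on simulated data with known changes. These had independent noise at the spread of the control libraries and no shift between libraries, unlike the deposited values. That run therefore does not measure the error of the calls made here. Exact permutation tests of single genes used scipy 1.17.1. Alternatives were pseudocounts of 1 and 0.01, other filters (none, 1 and 5 FPKM), TPM, median-of-ratios and quantile scaling, a replicate block, other eBayes settings, an adjusted p under 0.05, and leaving out each library.

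The members and lists were chosen with earlier results of these data known. The named genes are the 9 members, let-607 and hsp-6, and up to 3 genes per list past the threshold or else the largest rise and fall. They also include the 3 genes most like hsp-60 and atfs-1, and protein-coding neighbors within 1000 bases on the same strand. Other named genes, opposite-strand neighbors and all ratios were chosen after their values were seen. Of the lists, timm-22 and daf-21 had no match and mrpl-42 no line, and haf-8 and a copy of hsp-16.1 were below the filter. Genes of the mitochondrial genome were taken as all its protein-coding genes. Sequences are not shown.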

Additional observations from a re-analysis of the deposited data

How the results depend on the processing

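Values of FPKM without counts limit what can be said of low genes such as haf-1. With a mean of at least 5 FPKM, 275 genes passed as higher and 124 as lower, against 579 and 216, from fewer genes tested. Of the passing genes 72.8% were higher in the deposited FPKM, against 77.0% after rescaling to TPM, 63.5% after median-of-ratios scaling and 58.4% after quantile normalization. Of the 9 genes, 4 rose after rescaling to TPM, 1 after median-of-ratios scaling and 1 after quantile normalization, and between 1 and 4 when each library was left out. None fell on the deposited scale, but 2 (hsp-60 and ubl-5, adjusted p = 0.0757 from limma) fell after median-of-ratios scaling and 1 (dve-1, -0.27, adjusted p = 0.0524) after quantile normalization. Values near 0 changed sign. hsp-60 was at 0.0194 after rescaling to TPM and between -0.0645 and 0.0183 when each library was left out. haf-1 was at 0.0252 after rescaling to TPM and between -0.121 and 0.114 when each library was left out. lonp-1 was at -0.106 after median-of-ratios scaling, at -0.0831 after quantile normalization and between -0.00523 and 0.0535 when each library was left out. spg-7 was at -0.0025 after median-of-ratios scaling. When each library was left out, immp-1 ranged from -0.239 to 0.0036 (without the second control library), and WBGene00010958 of the mitochondrial genome from -0.99 to 0.13 (the latter without let-607 RNAi library 3). The causes of these changes were not tested.

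The replicate numbers showed no sign of pairing the libraries, although so few libraries cannot exclude a shared culture or day. The deviations of same-numbered libraries from their group means had correlations of -0.0581, 0.00284 and -0.0179. For differently numbered libraries of the 2 groups the correlations were between -0.0677 and 0.0851. With a replicate block 586 genes passed as higher and 218 as lower, and 3 of the 9 genes rose, clpp-1 being added.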
